A study of Mus musculus with 32 samples.

Results

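Wnt ligands are secreted glycoproteins that carry signals between neighbouring cells. The 10 genes described here are Wnt1, Wnt3, Wnt3a, Wnt4, Wnt5a, Wnt5b, Wnt7b, Wnt8a, Wnt8b and Wnt9a, taken by symbol from the 19 Wnt ligand genes among the 55492 rows of the deposited expression table. They were chosen by their FPKM levels across all 32 libraries, so those levels and differences are a description and carry no p-value.

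The libraries hold polyadenylated RNA from mouse embryonic stem cells (day 0) and from the retinal organoids grown from them (days 2, 4 and 6). WT is the Rx:GFP line, which carries a green fluorescent reporter named for the eye field gene Rx (Rax). KO derives from it by knockout of Mettl3, the gene of the METTL3 methyltransferase, which places N6-methyladenosine (m6A) marks in mRNA. In the other 2 kinds of culture a METTL3 fusion with a domain labelled GRBD was put back into KO cells. These were grown without the glucocorticoid dexamethasone (no Dex), the fusion then being labelled cytosolic, or with it at 10 µM (Dex), the fusion then being labelled nuclear. Day 0 libraries of this kind carry the Dex label too, but the protocol text names only treatments of 2, 4 and 6 days, so whether the day 0 Dex cells had received the drug is in doubt. Each of the 16 groups, 4 kinds of culture at 4 days, has 2 libraries. The KO, no Dex and Dex cultures thus share the Mettl3 knockout, per the labels, and all cultures of days 2, 4 and 6 had AGN at 0.1 µM. No WT or KO culture received Dex, so an effect of the drug alone and of moving the fusion protein cannot be told apart. The labels do not say whether duplicates came from separate cultures or how many KO or fusion clones were used, so the spread between duplicates may be technical.

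As background, Wnt proteins are acylated by Porcn, carried to the cell surface by Wls and received by Frizzled receptors together with Lrp5, Lrp6 or other co-receptors. One branch of signalling stabilises beta-catenin, which acts with TCF and LEF factors on target genes such as Axin2, while other branches act on cell shape and polarity. In the early neural plate Wnt signalling favours caudal and dorsal fates, and the eye field forms where beta-catenin signalling is held low.

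FPKM, fragments per kilobase of transcript and M (mega) mapped fragments, is the level used throughout, and because it is per length it can be compared between genes. The libraries held an estimated 28.8 M to 54.2 M fragments each. At that depth 3 fragments on Wnt1 correspond to between 0.026 and 0.051 FPKM, so Wnt1 levels of a few hundredths are close to no reads. Mettl3 mRNA was not lower in KO: it stood at 33.2 and 36.8 FPKM in WT and at 42.9 and 43.8 FPKM in KO at day 0, so this gene's mRNA level does not check the knockout. The organoid label was checked against eye field genes. Rax, which the eye field needs, was at 115 and 122 FPKM in WT at day 6, 0.28 and 0.32 in KO, 0.79 and 1.03 in no Dex, and 53.9 and 55.5 in Dex. Six6, a retinal progenitor factor, had a mean of 69.7 FPKM in WT and was at 0.02 in both KO libraries, 0.01 in both no Dex libraries, and 6.13 and 6.66 in Dex. These eye markers were thus near 0 in KO and, for Six6, in no Dex, although Pax6, which other neural cells also express, was at 111 and 112 FPKM in KO.

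Wnt ligand mRNA was scarce in stem cells and abundant at day 6, and each kind of culture had a different mix. The 19 Wnt genes summed to between 4.39 and 8.35 FPKM at day 0. At day 6 the sum was 60.9 and 63.4 FPKM in WT, 116 and 117 in KO, 228 and 235 in no Dex, and 203 and 207 in Dex. The 4 kinds of culture did not overlap in this sum at day 6. Wnt5b made up 43.5% of it in WT, followed by Wnt7b (27.5%) and Wnt8b (12.6%). In KO, Wnt1 alone made up 50.3%. In no Dex the leading ligands were Wnt7b (35.2%), Wnt8b (31.1%) and Wnt1 (17.0%). In Dex they were Wnt7b (50.9%), Wnt8b (22.2%), Wnt5b (10.9%) and Wnt1 (7.4%). At day 6 the number of the 10 members that reached 1 FPKM in both libraries was 5 in WT, 9 in KO, 9 in no Dex and 8 in Dex.

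**Figure D1:**
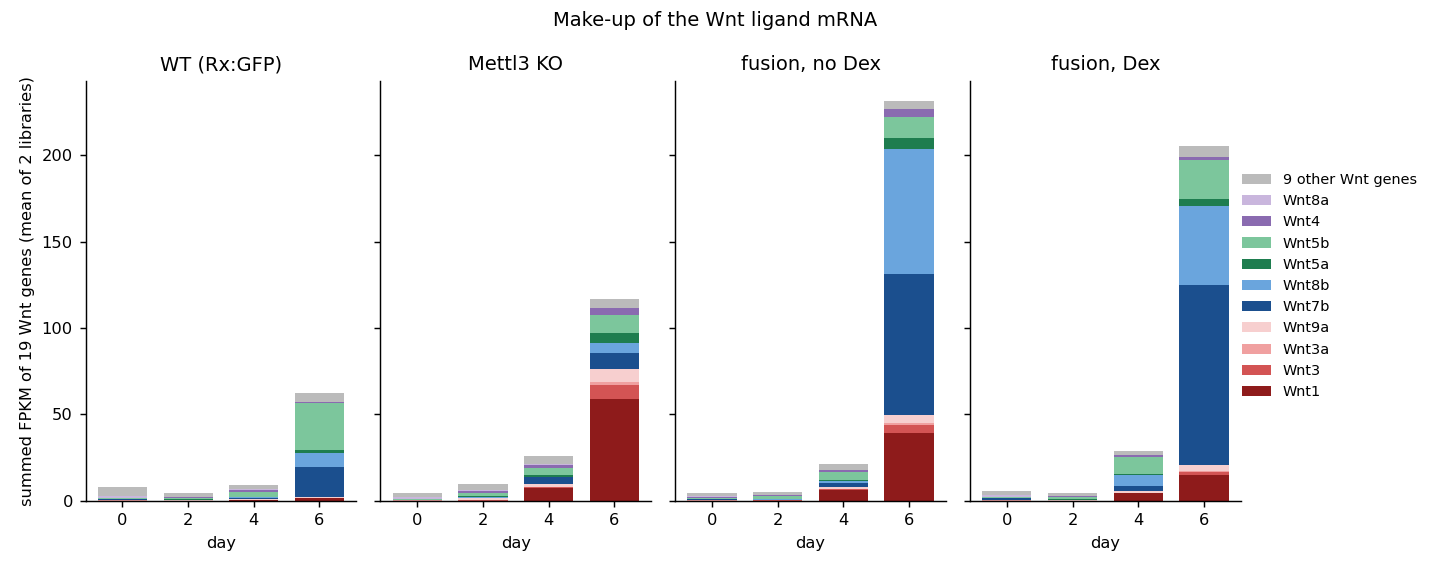
Stacked bars give the mean FPKM of each Wnt gene in the 2 libraries of a group, by day, in WT, KO, no Dex and Dex cultures, with the 9 other Wnt genes in grey. WT at day 6 is mostly Wnt5b, Wnt7b and Wnt8b, KO is led by Wnt1, and both fusion cultures are led by Wnt7b and Wnt8b.

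At day 6 Wnt1, Wnt3, Wnt3a and Wnt9a were highest in KO, Wnt7b and Wnt8b were highest in the fusion cultures, and Wnt5b was highest in WT. Wnt4 and Wnt5a had their highest means in no Dex, close to KO, and Wnt8a was highest at day 0. The stretches of 250 bases before the start sites of Wnt1, Wnt8b and Wnt5b, 1 from each of the first 3 sets, are shown because they differ in base composition and in the motifs they hold. They come from the RefSeq promoter table on GRCm38.p6, which matched 7 of the 10 members. It had no entry for Wnt5a, Wnt7b or Wnt8a. Capitals mark any match on either strand to CTTTGA (core of TCF and LEF sites, found in 13.8% of 32851 promoters of the same length), TAATCC (an Otx-type homeodomain motif, 6.3%) or TAATTA (a general homeodomain motif, 4.8%). The Wnt1 stretch is chr15:98789607-98789856 on the plus strand, the Wnt8b stretch is chr19:44493222-44493471 on the plus strand, and the Wnt5b stretch is chr6:119449387-119449636 on the minus strand, before 1 of 3 listed start sites.
Wnt1: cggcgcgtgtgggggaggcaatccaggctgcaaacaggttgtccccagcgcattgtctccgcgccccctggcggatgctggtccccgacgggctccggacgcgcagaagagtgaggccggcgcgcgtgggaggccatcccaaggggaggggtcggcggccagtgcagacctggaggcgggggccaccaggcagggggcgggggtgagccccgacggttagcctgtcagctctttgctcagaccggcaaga
Wnt8b: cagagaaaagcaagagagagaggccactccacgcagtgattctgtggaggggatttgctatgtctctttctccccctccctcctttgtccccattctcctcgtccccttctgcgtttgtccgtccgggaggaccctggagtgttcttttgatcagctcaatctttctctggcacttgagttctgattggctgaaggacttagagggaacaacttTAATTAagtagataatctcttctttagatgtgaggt
Wnt5b: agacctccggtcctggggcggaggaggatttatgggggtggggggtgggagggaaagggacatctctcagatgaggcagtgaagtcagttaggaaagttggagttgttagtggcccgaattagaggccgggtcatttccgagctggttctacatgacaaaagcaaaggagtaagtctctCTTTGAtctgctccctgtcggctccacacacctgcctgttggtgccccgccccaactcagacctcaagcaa
The Wnt1 stretch is 71.6% G and C and holds none of the motifs. The Wnt8b stretch has the lowest G and C share of the member stretches, 48.4%, and holds TAATTA 36 bases before the start. The Wnt5b stretch is 55.6% G and C and holds CTTTGA 71 bases before the start. No other member stretch held any of the 3 motifs. The median G and C share was 52.4% over all promoters and 71.6% over the member stretches. A match describes letters only, and which Wnt5b start site was used was not measured.

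**Figure D2:**
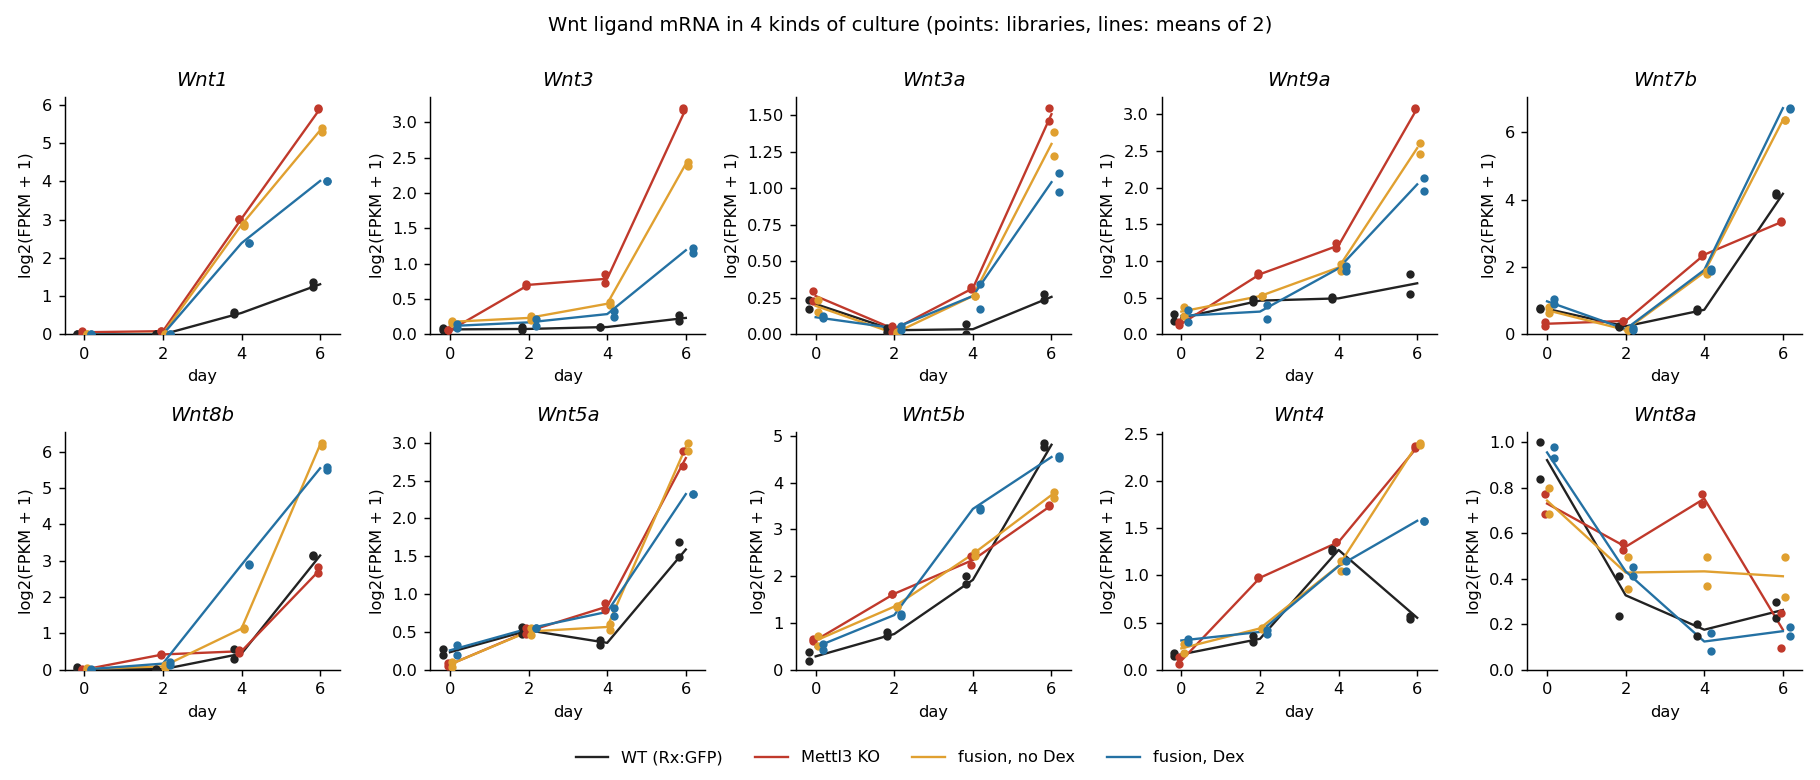
Each panel shows one member, with the day on the x axis and log2(FPKM + 1) on the y axis, points for libraries and lines for the mean of the 2 libraries of a group. Wnt1, Wnt3, Wnt3a and Wnt9a are highest in KO at day 6, Wnt7b and Wnt8b in the fusion cultures, and Wnt5b in WT. Wnt8a has its highest means at day 0, in Dex and WT, while in KO its day 4 libraries overlap those of day 0.

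Wnt1 was the member with the widest difference in log2 level between KO and WT. It encodes the ligand that the early midbrain and its border with the hindbrain need, and it also marks the dorsal midline of the neural tube. The gene lies at chr15:98789857-98793837, and its 4 exons make 1 annotated transcript. No library of days 0 or 2 was above 0.07 FPKM. At day 4 the 2 libraries gave 0.44 and 0.51 FPKM in WT, 7.14 and 7.14 in KO, 6.09 and 6.44 in no Dex, and 4.19 and 4.25 in Dex. At day 6 they gave 1.36 and 1.60 FPKM in WT, 58.0 and 59.4 in KO, 37.9 and 40.6 in no Dex, and 15.1 and 15.1 in Dex. The order KO, no Dex, Dex, WT was the same at both days, and no libraries of neighbouring groups overlapped. The day 6 mean was 39.7 times as high in KO as in WT, with 36.2 to 43.7 over the pairs of libraries, and 10.2 times as high in Dex as in WT (9.44 to 11.1). The log2 difference of FPKM + 1, KO minus WT, was 4.59 ± 0.05 (SE of the fit), and Dex minus no Dex was -1.32 ± 0.05.

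Wnt3 and Wnt3a are ligands of the beta-catenin branch that are known from the primitive streak and the dorsal neural tube. Wnt3 already stood apart at day 2, with 0.61 and 0.64 FPKM in KO against 0.04 and 0.07 in WT, 0.15 and 0.20 in no Dex, and 0.09 and 0.16 in Dex. At day 6 it was at 0.14 and 0.21 FPKM in WT, 8.02 and 8.21 in KO, 4.22 and 4.41 in no Dex, and 1.23 and 1.33 in Dex. The KO mean was 46.4 times the WT mean (38.2 to 58.6 over pairs of libraries). That is the largest ratio of KO to WT among the members at day 6, on a WT mean of only 0.175 FPKM. Wnt3a was low everywhere, and its day 6 libraries gave 0.18 and 0.21 FPKM in WT, 1.76 and 1.93 in KO, 1.33 and 1.61 in no Dex, and 0.97 and 1.15 in Dex. Its groups kept the same order without overlap, and KO was 9.46 times WT.

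Wnt9a encodes a ligand best known from joints and the skeleton. It lies on chromosome 11 beside Wnt3a, with 16.2 kb between the genes, and it was the more abundant of these neighbours in all 4 kinds of culture at day 6. Its day 2 libraries gave 0.75 and 0.78 FPKM in KO and 0.36 and 0.39 in WT. At day 6 it was at 0.47 and 0.77 FPKM in WT, 7.37 and 7.51 in KO, 4.49 and 5.11 in no Dex, and 2.86 and 3.38 in Dex. The log2 difference of KO minus WT was 2.39 ± 0.09, and the order of the 4 groups was that of Wnt1, again without overlap.

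Wnt4, which encodes a ligand needed for kidney tubules and the female reproductive tract, was higher in KO than in WT at days 2 and 6. At day 2 it was at 0.96 and 0.97 FPKM in KO against 0.23 and 0.28 in WT. At day 4 its WT libraries, 1.39 and 1.43 FPKM, were close to KO (1.55 and 1.56) and above no Dex (1.06 and 1.23) and Dex (1.06 and 1.22), which overlapped. By day 6 WT was at 0.45 and 0.48 FPKM, KO at 4.09 and 4.16, no Dex at 4.19 and 4.28, and Dex at 1.98 and 1.99. Among the 9 members that passed the filter, Wnt4 was the one whose WT mean was lower at day 6 than at day 4, at 0.330 times it. KO and no Dex differed by a log2 difference of 0.03 ± 0.05, within the error of the fit, although their libraries did not overlap.

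Wnt5a and Wnt5b encode close relatives that act mainly through the polarity branch. Wnt5a was at 1.80 and 2.22 FPKM in WT at day 6, 5.47 and 6.44 in KO, 6.41 and 6.97 in no Dex, and 4.00 in both Dex libraries. KO and no Dex overlapped, and both were above Dex and WT. Wnt5b went the other way at day 6. WT had 26.3 and 27.8 FPKM, KO 10.4 and 10.5, no Dex 11.7 and 12.9, and Dex 22.1 and 22.7, so the WT mean was 2.59 times the KO mean and Dex was 1.82 times no Dex. Earlier the order differed. At day 2, Wnt5b was at 2.08 and 2.09 FPKM in KO against 0.66 and 0.74 in WT, and at day 4 the highest group was Dex, with 9.69 and 9.99 FPKM against 2.54 and 3.04 in WT, 3.75 and 4.42 in KO, and 4.37 and 4.74 in no Dex.

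Wnt7b and Wnt8b are ligands of the developing forebrain, and Wnt8b is a marker of the cortical hem and the dorsal diencephalon. Wnt7b was at 16.8 and 17.4 FPKM in WT at day 6, 9.12 and 9.34 in KO, 81.3 and 81.6 in no Dex, and 103 and 105 in Dex. These were the highest levels of any member in the table. The no Dex mean was 8.83 times that of KO (8.71 to 8.95), and the Dex mean was 6.11 times that of WT. Wnt8b gave 7.70 and 7.96 FPKM in WT, 5.37 and 6.13 in KO, 70.1 and 73.9 in no Dex, and 44.0 and 47.1 in Dex. The no Dex mean of Wnt8b was 12.5 times that of KO (11.4 to 13.8) and 9.19 times that of WT. For both genes KO lay below WT without overlap, and both fusion cultures lay above WT.

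The timing of these 2 genes differed between cultures. At day 4 Wnt7b was at 0.63 and 0.69 FPKM in WT, 4.07 and 4.25 in KO, 2.48 and 2.69 in no Dex, and 2.72 and 2.81 in Dex, so KO was the highest group then and the lowest at day 6. Wnt8b at day 4 was at 0.24 and 0.48 FPKM in WT, 0.39 and 0.46 in KO, 1.18 and 1.20 in no Dex, and 6.30 and 6.49 in Dex. Dex was therefore above no Dex at day 4 and below it at day 6. From day 4 to day 6 the mean of Wnt8b was multiplied by 60.5 in no Dex and by 7.13 in Dex.

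Wnt8a, a ligand of the primitive streak, was the one member with its highest levels at day 0. The libraries gave 0.79 and 1.00 FPKM in WT, 0.61 and 0.71 in KO, 0.61 and 0.74 in no Dex, and 0.91 and 0.97 in Dex at that day. At day 6 no library was above 0.41 FPKM. In day 4 KO it was at 0.66 and 0.71 FPKM, overlapping day 0 KO and above the other groups of day 4, whose highest library was at 0.41. Its highest libraries, at 1.00 and 0.97 FPKM, put it just outside the filter of 1 FPKM in 2 libraries, and Wnt3a, with 1.93 and 1.76 FPKM, was the member just inside.

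**Figure D3:**
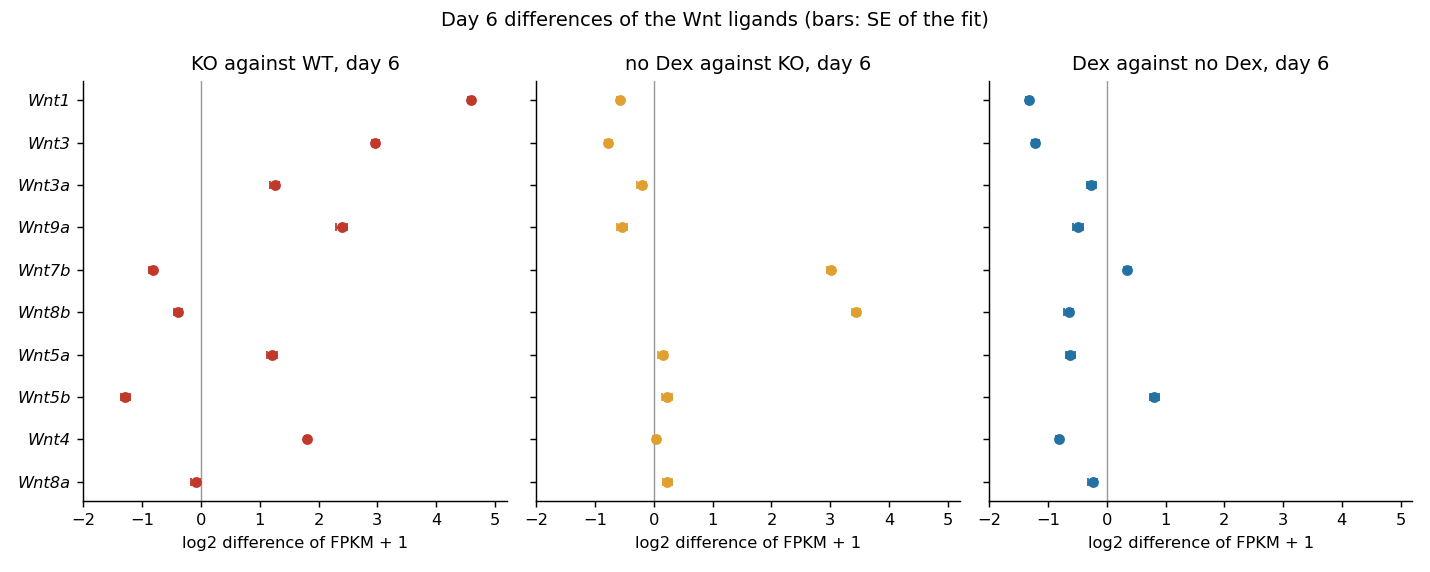
Points are the day 6 log2 differences of FPKM + 1 for each member, and bars are the SE of the fit, for KO against WT, no Dex against KO and Dex against no Dex. Wnt8a comes from the same fit without the filter on low values. Wnt1 lies at 4.59 in KO against WT and at -1.32 in Dex against no Dex, while Wnt7b and Wnt8b lie at 3.01 and 3.44 in no Dex against KO.

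With limma on log2(FPKM + 1) and Benjamini-Hochberg adjustment over 16276 genes, all 9 members that passed the filter were called between KO and WT at day 6 (65.1% of all genes were), 6 higher and 3 lower, where 30.9% of all genes were called higher in KO and 34.2% lower. At day 0, 1 member was called higher and 1 lower, where 18.4% and 29.8% of all genes were. The count was 6 higher and 0 lower at day 2, where 37.5% of all genes were higher and 21.3% lower, and 7 higher and 0 lower at day 4, where the shares were 36.5% and 24.0%. Median-of-ratios scaling moves the share of higher calls among all called genes from 63.8% to 50.5% at day 2 and from 60.3% to 49.6% at day 4. Between Dex and no Dex at day 6, 2 members were called higher and 7 lower, where 23.8% of all genes were higher and 19.0% lower. Between no Dex and KO, 3 were called higher and 4 lower, where 21.1% and 27.9% of all genes were. From day 0 to day 6, 8 of the 9 were called higher in WT (43.6% of all genes were) and all 9 in KO (45.0%), no Dex (48.0%) and Dex (46.4%). The members were chosen with these contrasts in view, so nothing is read from these counts. No Dex against KO shares its KO libraries with KO against WT and its no Dex libraries with Dex against no Dex, so the contrasts are not independent.

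Several lists of markers of other regions also differed between the cultures at day 6, though not all in the order of Wnt1. The summed level of 6 roof plate genes, the dorsal midline cells of the neural tube, was 8.05 to 8.64 FPKM in WT at day 6, 125 to 127 in KO, 96.6 to 97.1 in no Dex and 89.2 to 91.3 in Dex. Neural crest genes, 6 in all, summed to 3.85 to 4.13 FPKM in WT, 80.9 in KO, 69.7 to 71.1 in no Dex and 24.5 to 26.3 in Dex. By limma with Benjamini-Hochberg adjustment all 6 genes of each of these lists were called higher in KO than in WT, where 30.9% of all genes were. The marker lists were written with earlier results of these data known, so such counts are a description. At day 6 none of the neural crest genes reached 1 FPKM in both WT libraries. The 8 midbrain and isthmus genes summed to 48.0 to 49.4 FPKM in WT, 73.9 to 75.2 in KO, 36.74 to 37.98 in no Dex and 13.36 to 13.95 in Dex. In KO against WT 3 were called higher and 3 lower, where 30.9% and 34.2% of all genes were, so this list is described by its genes. Dmbx1 (50.9 FPKM in KO, 0.29 in WT) and Pax7 (16.7 against 0.28) made up most of the KO sum. Pax2, which the optic stalk also expresses, made up most of the WT sum and was lower in KO (39.5 FPKM in WT, 0.38 in KO). En1 and En2, markers of the region around the midbrain and hindbrain border, were at no more than 2.13 FPKM in any day 6 library. Extraembryonic endoderm genes, 7 in all, summed to 47.6 to 48.2 FPKM in WT and to at most 5.36 in the others, with Afp at 0 in KO, no Dex and Dex. Primitive streak genes summed to between 2.18 and 3.22 FPKM in all 8 day 6 libraries. What part these other cell types have in the Wnt levels was not tested, and in bulk RNA fewer cells of a type and less RNA per cell cannot be told apart.

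Across the 16 group means of log2(FPKM + 1), the members most alike were Wnt3 and Wnt9a (Pearson r = 0.96), Wnt1 and Wnt9a (0.95), and Wnt7b and Wnt8b (0.95). These values describe groups that share days and libraries. Among all tested genes, those most like Wnt1 were Trabd2b (r = 0.987), Ddn (0.986) and Pax3 (0.976). Trabd2b encodes a protease that inactivates Wnt proteins, Pax3 is a dorsal neural tube and neural crest factor, and Ddn lies 9.9 kb from Wnt1 on chromosome 15. The genes most like Wnt3 were Slit1 (0.991), an axon guidance ligand, Pax7 (0.985), a dorsal midbrain factor, and Lzts1 (0.982). Wnt9a was most like Epha10 (0.985), Trabd2b (0.982) and Slit1 (0.982). For Wnt7b they were Robo2 (0.978), Eya4 (0.977) and Gm3764 (0.976), and for Wnt8b they were Gm14342 (0.984), Gm3764 (0.982) and Airn (0.976). Wnt5b was most like the Frizzled receptor gene Fzd1 (0.992), then Plekhg4 (0.985) and Celf2 (0.979). Wnt5a was most like Zmat1 (0.990), St8sia4 (0.988) and Adgrb3 (0.985). Several of these similar genes were low in every group. The highest group level was 2.28 FPKM for Zmat1, 1.64 for St8sia4, 1.37 for Adgrb3, 1.87 for Ddn and 2.55 for Gm14342.

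Of the 9 Wnt ligand genes that are not members, 4 passed the filter. Wnt11 reached 1 FPKM only in 4 WT libraries, and Wnt7a only in 4 fusion libraries of day 6. Wnt10b did so only in 6 libraries, those of KO at days 4 and 6 and of no Dex at day 4. These genes thus entered the tests through groups in which they were high, so their p-values are no independent support. Wnt10b, the neighbour of Wnt1 at 11.7 kb on chromosome 15, was at 2.54 and 2.85 FPKM in KO at day 6 against 0.07 and 0.16 in WT, a rise of 1.73 ± 0.07 on the log2 scale (limma adjusted p = 7.11e-14). In Dex it was lower than in no Dex by a log2 difference of -0.53 ± 0.07 (limma adjusted p = 6.61e-06). Wnt11, a ligand of the polarity branch, fell from 3.39 and 3.44 FPKM in WT to 0.38 and 0.81 in KO (-1.48 ± 0.12, limma adjusted p = 2.29e-09). Wnt7a was lower in KO than in WT (-0.73 ± 0.06, limma adjusted p = 9.59e-10), higher in no Dex than in KO (1.42 ± 0.06, limma adjusted p = 2.71e-13) and higher again in Dex than in no Dex (0.72 ± 0.06, limma adjusted p = 6.58e-09). Wnt6 was the most abundant Wnt gene of stem cells, at 34.1% to 58.9% of the Wnt sum at day 0. It was then at 4.31 and 5.03 FPKM in WT and at 1.70 and 2.04 in KO. At day 2 KO was above WT, with 2.65 and 2.89 FPKM against 1.20 and 1.22. By day 6 the means of Wnt6 were only 0.36 FPKM in WT and 0.40 in KO, and it was not called between them (limma adjusted p = 0.784). Wnt9b, the neighbour of Wnt3 at 24.3 kb, did not pass the filter and did not exceed 0.37 FPKM in any library.

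As a measure of sequence that the choice of members did not use, the letters GGACT, a form of the m6A consensus, were counted in the longest coding transcript of each gene. The members had a median of 1.47 GGACT per kb, from 0.84 in Wnt1 to 1.81 in Wnt3a, against a median of 1.05 and quartiles of 0.63 and 1.53 over 13614 tested coding genes. The Wnt genes that are not members went from 0.91 in Wnt16 to 2.41 in Wnt6, so such values are not particular to the members. Wnt1, Wnt7b (0.88) and Wnt8b (0.89), the members with the highest levels, lay below that median over all genes. So did Wnt3 (0.98), a member with lower levels, while Wnt5b, the leading ligand in WT at day 6, was at 1.69. The letters mark possible sites only, and no m6A was measured in these libraries.

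The rest of the pathway was taken from lists of secretion, receptor, inhibitor and target genes. Wls, the carrier needed to release Wnt proteins, was highest in KO, as Wnt1 was. Its libraries gave 17.5 and 17.7 FPKM in WT at day 6, 139 and 141 in KO, 90.3 and 90.6 in no Dex, and 44.6 and 45.7 in Dex. The log2 difference was 2.92 ± 0.10 for KO against WT (limma adjusted p = 3.72e-15) and -0.99 ± 0.10 for Dex against no Dex (limma adjusted p = 1.77e-07). Wls was already higher in KO at day 2, by 0.80 ± 0.10 (limma adjusted p = 1.27e-06), when Wnt1 had at most 0.06 FPKM. Other members were not as low then, and 6 of the 9 tested were called higher in KO at day 2. Of the 8 secretion genes 2 were called higher and 4 lower at that day. Over all genes 37.5% were called higher and 21.3% lower. Of the 8 secretion genes, 3 were called higher in KO at day 6 and 4 lower, where 30.9% of all genes were higher and 34.2% lower. The median log2 difference of the list was -0.09 against -0.03 over all genes, so the size of the Wls change was not that of the list.

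Target genes of beta-catenin were taken next. Their list, like the other pathway lists, was written with earlier results of these data known. Its counts, medians and p-values are therefore a description and no independent support. Of 12 tested of a list of 14, 9 rose and 1, Ccnd1, fell (-0.61 ± 0.03, limma adjusted p = 4.84e-13) at day 6, where 30.9% of all genes rose and 34.2% fell, with a median log2 difference of 0.80 against -0.03 over all genes. When genes with a mean under 5 FPKM were left out, which removes some of the list, 5 were called higher. Axin2, a feedback inhibitor of the pathway, was at 5.92 and 6.06 FPKM in WT, 56.7 and 57.0 in KO, 43.5 and 44.0 in no Dex, and 29.7 and 31.3 in Dex (KO against WT 3.05 ± 0.08, limma adjusted p = 9.44e-17). Sp5, a transcriptional repressor and direct target, rose by 2.42 ± 0.09 (limma adjusted p = 1.37e-14), Apcdd1, a membrane inhibitor of Wnt signalling, by 2.37 ± 0.08 (limma adjusted p = 6.56e-15) and Nkd1, a further feedback inhibitor, by 1.38 ± 0.11 (limma adjusted p = 2.39e-09). In Dex against no Dex none of the list was called higher and 5 fell, where 23.8% and 19.0% of all genes did, with a median of -0.16 against 0.01 over all genes. These were Apcdd1 (-0.98 ± 0.08, limma adjusted p = 1.86e-08), Lgr5, Sp8, Axin2 (-0.51 ± 0.08, limma adjusted p = 4.78e-05) and Sp5. With the same minimum of 5 FPKM, 2 were called lower. Axin2 was already higher in KO than in WT at day 0, by 0.31 ± 0.08 (limma adjusted p = 0.00413). Of the 12 tested genes of the list, 4 were called higher at day 0, 2 lower and 6 were not called. Over all genes 18.4% were called higher and 29.8% lower at that day.

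**Figure D4:**
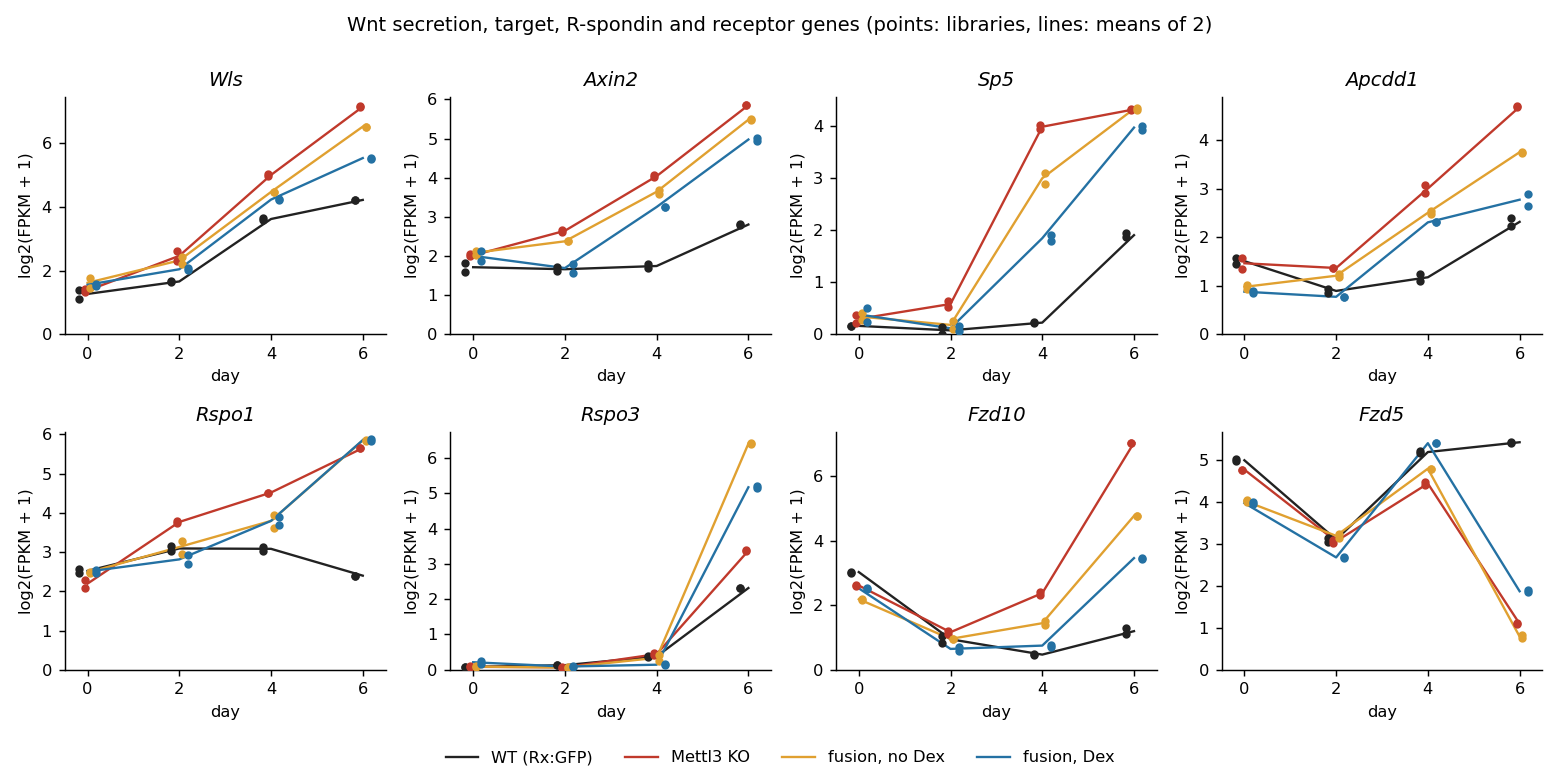
Panels show log2(FPKM + 1) by day for Wls, the targets Axin2, Sp5 and Apcdd1, the ligands Rspo1 and Rspo3, and the receptors Fzd10 and Fzd5, with points for libraries and lines for means of 2. At day 6 Wls, Axin2 and Apcdd1 lie in the order KO, no Dex, Dex, WT, and Rspo3 is highest in no Dex.

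Receptors and co-factors had calls in both directions, as all genes did (30.9% higher and 34.2% lower in KO at day 6, and 23.8% higher and 19.0% lower in Dex against no Dex), so the lists are described by their genes. Among 10 Frizzled receptor genes 4 rose and 5 fell in KO at day 6. Fzd10 went from a mean of 1.29 FPKM in WT to 129 in KO (5.83 ± 0.07, limma adjusted p = 4.06e-22), and Fzd5, an eye field receptor, from 42.2 to 1.14 (-4.34 ± 0.04, limma adjusted p = 3.14e-23). In Dex against no Dex 7 Frizzled genes rose and 2 fell, Fzd10 by 1.31 on the log2 scale (limma adjusted p = 2.65e-11) and Fzd3, whose call (limma adjusted p = 0.0244) was lost when any one of the 4 libraries was left out. R-spondins amplify Wnt signals through Lgr receptors. Of 5 tested genes of these ligands and receptors 4 rose and 1, Lgr4, fell in KO against WT, with Rspo1 at 3.25 ± 0.11 (limma adjusted p = 2.53e-15) and Rspo2 at 2.58 ± 0.04 (limma adjusted p = 2.27e-20). Rspo3 was highest in the fusion cultures, at 83.0 and 84.5 FPKM in no Dex and 34.5 and 35.6 in Dex against 9.32 and 9.44 in KO and 3.97 and 3.99 in WT. As for Wnt8b, no Dex was above Dex and both were above KO and WT. Of 8 tested secreted antagonists 3 rose and 5 fell in KO, led by Dkk3 (-1.52 ± 0.06, limma adjusted p = 4.00e-14). Of 7 co-receptors 2 rose and 1, Gpc4, fell (-3.04 ± 0.04, limma adjusted p = 2.45e-21). Tcf7l1, a TCF factor that represses targets, was lower in KO (-1.27 ± 0.04, limma adjusted p = 5.34e-15) and higher in Dex than in no Dex (1.18 ± 0.04, limma adjusted p = 1.68e-13).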

How the data were processed

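The members and gene lists were chosen with earlier results of these data known. The authors deposited FPKM per gene for 32 libraries of mouse stem cells and organoids, and the deposited table's name and values give the unit. STAR, Cuffdiff and mm10 are named in the submitters' processing notes, without versions. Gene positions come from GENCODE M21 by Ensembl ID (99.5% of rows matched). Depth per library, 28.8 M to 54.2 M fragments, was worked out from the spacing of low FPKM values, 82.8% to 92.9% of which lay within 0.2 of a whole fragment (40% by chance). These limits cover counting error only.

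Tests used R 4.3.3 and limma 3.58.1 (lmFit, contrasts.fit, eBayes with trend) on log2(FPKM + 1), which understates changes of low genes. All 32 libraries entered 1 fit of 16 group means, on 16276 genes with at least 1 FPKM in at least 2 libraries. Calls were two-sided at a Benjamini-Hochberg adjusted p under 0.05. The scripts were checked on simulated data. Named genes were the members, the other Wnt genes, up to 4 of the most changed called genes of each pathway list, and the 3 genes most correlated with each member that reached 5 FPKM. Alternatives were another pseudocount, filters, scaling, samples in the fit, a replicate block and leaving out each library. Some marker genes are not reported here.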

Additional observations from a re-analysis of the deposited data

Results flagged for a closer look

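In 4 cases a member differed between the same 2 kinds of culture in opposite directions on 2 days, by at least 0.5 on the log2 scale of FPKM + 1 each time and without overlap of libraries. The differences between days were not tested. Wnt5b, KO against WT, was 0.86 at day 2 and -1.29 at day 6. Wnt7b, KO against WT, was 1.64 at day 4 and -0.82 at day 6. Wnt7b, no Dex against KO, was -0.53 at day 4 and 3.01 at day 6. Wnt8b, Dex against no Dex, was 1.76 at day 4 and -0.65 at day 6. With no minimum size, 43 such pairs of days were found among the members. Both counts used only days on which every library compared was above the level of 3 fragments for that gene.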

How the results depend on the processing

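No member's called log2 difference changed direction under any alternative that was run. Of 1360 alternative values, 22 had the opposite sign, 18 with a library left out and 4 with another scaling. They belong to 12 differences between cultures at days 0, 2 and 4 of at most 0.07 in size, and none at day 6. Another scaling moved 51 of 144 of them by more than the replicate spread and a pseudocount of 0.1 moved 123 of 144, since most members are low in some group. Leaving out single libraries moved none of 576. Replicate numbers did not pair the libraries (correlations of deviations from -0.09 to 0.13 over 120 pairs of groups), and with a replicate block in the fit 10558 genes were called between KO and WT at day 6 against 10591 without it, and no count of called genes moved by over 1.5 times. Fitting the compared groups only, which leaves fewer residual degrees of freedom, called 3357 genes for KO against WT at day 0, and 3941 and 2284 for no Dex against KO at days 2 and 4. Testing only genes with a mean of at least 5 FPKM, which tests fewer genes, called 7880, 8148, 8222 and 8049 genes between day 6 and day 0 in WT, KO, no Dex and Dex. With median-of-ratios scaling the median log2 difference between day 6 and day 0 over all genes went from 0.17 to -0.04 in no Dex and from 0.14 to -0.02 in Dex. Of the pathway counts in KO against WT at day 6, the same minimum left 2 Frizzled receptors called higher and 1 antagonist called lower. The count of Frizzled receptors called lower in Dex against no Dex depended on single libraries, as given above. The level that 3 fragments give depends on the gene and the library, from 0.008 to 0.016 FPKM for Wnt5a and from 0.038 to 0.073 for Wnt8a.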
